A study of Rattus norvegicus with 30 samples.

Results

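The comparison described here set the proximal rat sciatic nerve (SN) at 4 d after resection against the same tissue at 0 d. Its members were the 3 arrays whose labels give 4 d and SN and the 3 arrays whose labels give 0 d and SN, 6 of the 30 arrays in the series. All rats were adult male Sprague-Dawley animals in which a segment of the left sciatic nerve was cut out just above its division into the tibial and common peroneal nerves, and RNA came from the proximal stump. The labels give this operation for every group, with 0 d as the control, and do not say whether the 0 d nerves were cut before they were collected. The series also holds SN arrays of 1, 7 and 14 d and arrays of the dorsal root ganglia (DRG, L4–6) at the same 5 time points, which serve below only to place the 4 d values. The labels describe 5 groups of 6 rats, but neither they nor the methods say which rats each array holds, so the p-values measure the spread between these arrays.

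When an axon is cut, the part beyond the cut degenerates, while the stump still joined to the cell body survives, sprouts and becomes inflamed near the lesion. Myelinating Schwann cells close to the cut turn down the genes of the myelin sheath and of the lipid synthesis that feeds it, re-enter the cell cycle and take on a repair state in which they secrete trophic factors. Macrophages and other leukocytes enter the nerve, clear the debris of myelin and axons and export its cholesterol. The gene lists below follow these programmes in turn.

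Values are normalized signals, that is the log2 of the background-subtracted intensity of a probe minus the 75th percentile of its array, so that 0 stands for that percentile and a difference of 1 for a 2-fold change. The words upregulated, downregulated, rose and fell are kept for probes with a limma adjusted p (Benjamini-Hochberg over all tested probes) under 0.05 and a change of over 2-fold. Schwann cell markers were present on both days, with all 16 of 16 listed genes well above background on all 6 arrays. In such bulk tissue, fewer cells of a type and less RNA per cell cannot be told apart. Levels are compared between days for 1 probe at a time and never between genes.

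The arrays of 0 d stood apart in ways that touch the results. They were scanned on another date and in another run and lay on another slide than those of 4 d. Slide, scan and day after resection thus cannot be told apart in this SN comparison. They also had fewer probes well above background, 30220 to 31303 against 33871 to 34705 at 4 d, and the lowest signal still well above background was higher, −6.65 to −6.22 against −7.42 to −7.24. Among the replicates, SN 0 d replicate 1 had 1186 probes more than 2-fold above the mean of the other 0 d arrays. SN 4 d replicate 3, which lay on another slide than the other 4 d arrays, had 1584 probes more than 2-fold below theirs.

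Skeletal muscle RNA differed strongly between the arrays of 0 d. Over 42 tested genes of striated muscle, the mean normalized signal was 3.71, −0.14 and 0.33 on the 0 d arrays and −1.27, −2.22 and −1.76 on the 4 d arrays. Replicate 1 of 0 d was thus far above the other 0 d arrays, and all 4 d arrays were below all 0 d arrays. Acta1, the actin of skeletal muscle fibres, had normalized signals of 7.68, 3.12 and 3.59 at 0 d and 0.84, −0.91 and 0.27 at 4 d. The groups did not overlap, but the 0 d arrays were themselves far apart, and the log2 change was −4.73 (SE 1.14, adjusted p = 0.00333).

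Of all tested probes, 6.78% were downregulated at 4 d, and of the 42 muscle genes 28 were, with a median log2 change of −3.54. The 8 largest falls among all called genes that were well above background on both days were muscle genes: Pvalb, Myh4, Mybpc2, Actn3, Ckm, Myot, Pgam2 and Tnnc2. Pvalb, a calcium buffer of fast muscle fibres, changed by −6.69 (SE 1.57, adjusted p = 0.00275), from 6.51, 2.24 and 2.53 to −0.11, −4.45 and −4.24. The part of muscle RNA in the other falls was not tested beyond the values given beside them below. With the t-test of the methods after adjustment 2 of the 42 genes were downregulated, and without SN 0 d replicate 1 there were 25. With the muscle mean of each array as a covariate none of the 42 was. That mean is taken over these same genes, so this count was largely set in advance and tests nothing. Tnnt1, a troponin of slow fibres, and Hspb7, a small heat shock protein gene of muscle, were upregulated, with log2 changes of 2.34 and 1.14.

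**Figure D1:**
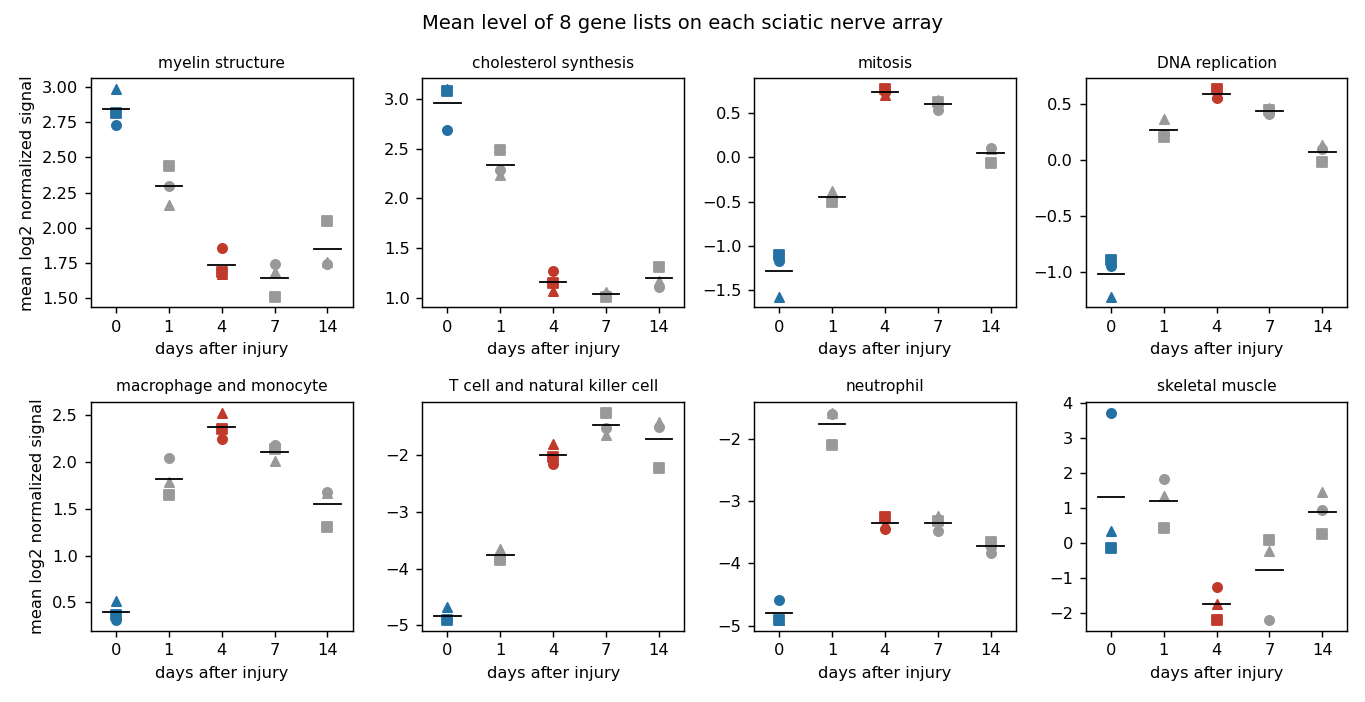
Mean normalized signal (log2) of 8 gene lists on each of the 15 SN arrays by day after injury, with circles, squares and triangles for replicates 1, 2 and 3, blue for 0 d, red for 4 d, grey for the other days and a bar at the mean of 3 arrays. Skeletal muscle reached 3.71 on 1 array of 0 d, far above the other 0 d arrays, while in all 8 lists the arrays of 0 d and of 4 d did not overlap.

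Over the 35157 probes tested, 5589 (15.9%) were upregulated and 2383 (6.78%) downregulated at 4 d, 7972 in all (22.7%). Upregulated probes made up 70.1% of the calls, but 56.4% after quantile normalization, 56.3% with the quantile-normalized values of the authors, 54.0% after normexp background correction with quantile normalization and 59.0% among probes that passed the background limit throughout both days. The median log2 change of all tested probes was 0.15 with the scaling used here and 0.00 after quantile normalization, so that the changes below are read against 0.15. Changes over 10-fold were found for 212 upregulated and 71 downregulated probes. Of the called probes 7687 had arrays of 0 d and 4 d that did not overlap, which was so for 22510 of all tested probes (64%). Between arrays, Pearson's r over the tested probes was 0.985 to 0.992 within 0 d, 0.989 to 0.995 within 4 d and 0.947 to 0.961 between the days, given across probes and without a test.

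**Figure D2:**
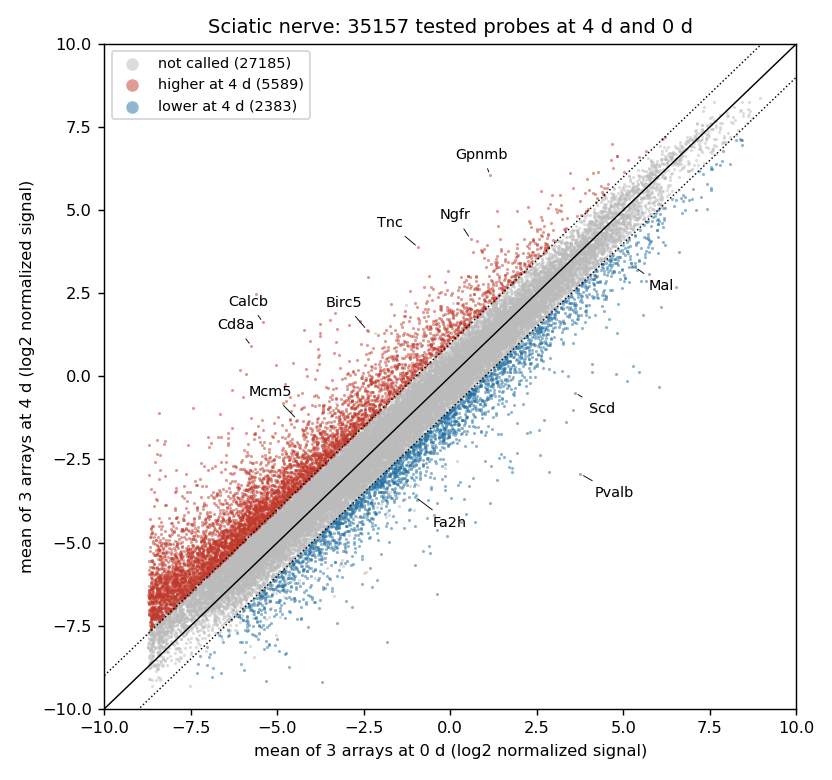
Mean normalized signal (log2) of each of the 35157 tested probes at 0 d (x axis) and 4 d (y axis), 3 SN arrays each, with called probes in colour, a solid line at equality and dotted lines at a 2-fold change. The 5589 upregulated probes lie above the upper dotted line and the 2383 downregulated ones below the lower one.

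Genes of the myelin sheath were downregulated at 4 d. Of 23 tested genes for the structure of myelin, 15 were downregulated (65.2%, against 6.78% of all tested probes) and none upregulated. The median log2 change was −1.34 against 0.15 over all tested probes. For 20 of the 23 all 4 d arrays were below all 0 d arrays, while the days did not overlap in 64% of all tested probes, in either direction. Of the list, Cnp, Gldn, Pmp22, Pals2, Tspan2 and Dhh had negative changes that were not called, from −0.87 to −0.09, and Cadm4 and Sgk2 were at 0.46 and 0.56.

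The largest fall of a myelin gene was that of Fa2h, whose enzyme adds the hydroxyl group to the fatty acids of myelin galactolipids. Its normalized signals were −1.27, −1.12 and −0.68 at 0 d and −3.42, −3.78 and −3.66 at 4 d. All 4 d arrays lay far below the 0 d arrays, with a log2 change of −2.59 (SE 0.21, adjusted p = 8.25e-07). The probe is shown to mark what this value reads: its 60 bases match NM_001135583, chr19:41279158-41289068 (rn4, − strand), a span of 9911 bases, so that it reads the mRNA across a junction of exons. It carries no capitals.
Fa2h probe: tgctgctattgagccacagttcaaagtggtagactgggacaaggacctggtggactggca

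Further genes of the sheath fell by similar amounts. Mal, a proteolipid of compact myelin (NM_012798, chr3:115167515-115167574), went from 5.24, 5.19 and 5.58 to 3.47, 3.10 and 3.30, a log2 change of −2.05 (SE 0.19, adjusted p = 2.46e-06). Gjb1, the connexin of the gap junctions in Schwann cell incisures, was at −1.11, −1.13 and −0.74 and then −2.63, −3.000 and −2.85, and changed by −1.83 (SE 0.16, adjusted p = 1.21e-06). Cldn19, the claudin of the Schwann cell's own tight junctions, was at 3.70, 4.03 and 4.04 and then 2.25, 2.04 and 2.16, with a change of −1.77 (SE 0.14, adjusted p = 6.27e-07). In none of these did an array of 4 d reach the range of 0 d. The list means of the 3 arrays were 2.73, 2.82 and 2.99 at 0 d and 1.86, 1.68 and 1.67 at 4 d, while the muscle mean on the same arrays spanned a far wider range at 0 d. With the muscle mean as a covariate 16 of the 23 genes were downregulated.

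Cholesterol synthesis fell most evenly of the lists tied to myelin. Of 24 genes for the enzymes and the regulation of the sterol pathway, 22 were downregulated (91.7%, against 6.78% of all tested probes) and none upregulated. The median log2 change was −1.90, and in all 24 the arrays of 4 d were below those of 0 d (no overlap in 64% of all tested probes). Stard4, a carrier of sterols, was at −0.46 and was not called. Tm7sf2, a sterol reductase late in the pathway (NM_001013071, chr1:208700867-208700926), had normalized signals of 5.50, 5.82 and 5.89 at 0 d and 3.26, 3.07 and 2.93 at 4 d. The gap between the days was several times the spread within them, with a log2 change of −2.65 (SE 0.14, adjusted p = 4.24e-08).

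The early steps moved in the same direction. Hmgcs1, which makes HMG-CoA, was at 7.12, 7.51 and 7.61 at 0 d and 5.19, 5.04 and 4.86 at 4 d, a change of −2.39 (SE 0.13, adjusted p = 7.01e-08). Idi1, the isomerase of isopentenyl diphosphate, was at 5.68, 6.17 and 6.16 and 3.87, 3.73 and 3.57, and changed by −2.28 (SE 0.14, adjusted p = 1.30e-07). Both genes were lower on every array of 4 d. Lss, which closes the ring to lanosterol, fell by 2.47 on the log2 scale (adjusted p = 1.11e-06), from 1.95, 2.13 and 2.50 to −0.18, −0.20 and −0.45. The genes for the factors that drive the pathway changed less: Srebf2 was at −0.94 and Srebf1 at −0.29 on the scale of log2 change, and neither was called. Under the alternative normalizations and tests and with any 1 array left out, 21 to 23 of the 24 sterol genes were downregulated.

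Fatty acid synthesis fell as well, in 11 of 18 genes (61.1%, against 6.78% of all tested probes), with a median of −1.33 and 1 gene upregulated, Mlxipl (1.08). Fasn, the fatty acid synthase itself (NM_017332), was at 6.16, 6.31 and 6.13 at 0 d and 4.003, 3.93 and 3.88 at 4 d, with a log2 change of −2.26 (SE 0.10, adjusted p = 1.71e-08). Elovl6, which elongates saturated chains, was at 5.55, 5.67 and 5.74 and 3.05, 2.84 and 2.70 and changed by −2.79 (SE 0.13, adjusted p = 2.05e-08). For both genes the arrays of each day lay close together and the days far apart. Scd, the desaturase that makes oleic acid, was at 4.24, 4.02 and 2.55 and −0.33, −0.53 and −0.61, with the third array of 0 d well below the other 0 d arrays, and changed by −4.09 (SE 0.41, adjusted p = 4.25e-06). Without that array the change was −4.62, and without replicate 1 of 0 d −3.77.

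Thrsp, a gene tied to lipogenesis, had a log2 change of −2.70 (SE 0.53, adjusted p = 7.81e-04). Its normalized signals were 2.97, 2.22 and 0.32 at 0 d and −1.34, −0.79 and −0.45 at 4 d. The third array of 0 d was far below the other 0 d arrays and near those of 4 d. Scd and Thrsp are also genes of fat tissue, and the markers of fat cells moved with them. Of 10 tested adipocyte genes 6 were downregulated (60%, against 6.78% of all tested probes) and 1, Ucp1, upregulated (10%, against 15.9%). The median log2 change of the 10 genes was −1.17. Their mean normalized signal was 1.61, 1.18 and 0.90 at 0 d and 0.27, 0.47 and 0.70 at 4 d. Adipoq, the hormone adiponectin of fat cells, went from 4.36, 3.85 and 3.14 to 1.89, 2.19 and 2.90, with a log2 change of −1.46 (SE 0.31, adjusted p = 0.00136). Its groups did not overlap, but replicates 3 of both days were close to each other. The part of fat tissue in the fall of the lipid genes was not tested. The adipocyte count was 3 without SN 0 d replicate 1 and 2 with the muscle mean as a covariate, and Slc36a2, an amino acid transporter on the same list, fell from 4.23, 4.62 and 4.58 to 3.12, 2.65 and 2.68 (adjusted p = 4.79e-06) and by 1.92 on the log2 scale with that covariate.

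**Figure D3:**
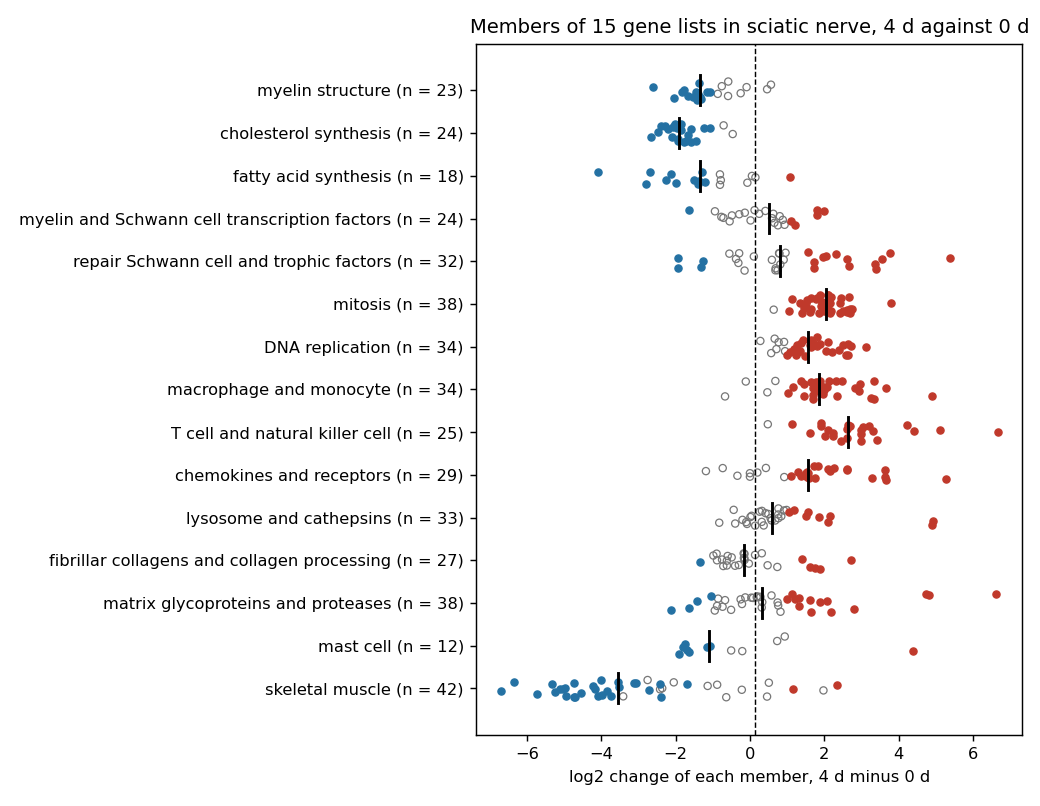
Log2 change (4 d minus 0 d) of every tested member of 15 gene lists, 1 point a gene, filled in red or blue where upregulated or downregulated and open where not called, with a black bar at the list's median and a dashed line at the median of all tested probes, 0.15. Cholesterol synthesis (median −1.90) lies wholly to the left of the dashed line, mitosis (2.04) wholly to its right, and skeletal muscle spreads from −6.69 to 2.34.

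Of 24 transcription factors of Schwann cells 5 were upregulated (20.8%) and 1 downregulated (4.17%), near the 15.9% and 6.78% of all tested probes, with a median log2 change of 0.50, or 0.40 with undetected genes at their bound. Egr2 (Krox20), which drives myelination, was at 3.58, 3.33 and 3.28 at 0 d and 2.73, 2.85 and 2.46 at 4 d. It was lower on every 4 d array, but by less than 2-fold, with a change of −0.71 (SE 0.20, adjusted p = 0.00716), and Sox10, which Schwann cells need at every stage, was at −0.49. Sox2, a factor of immature Schwann cells that holds back myelination, rose from −0.21, −0.14 and 0.15 to 1.05, 1.16 and 1.19, by 1.20 (SE 0.12, adjusted p = 3.37e-06). Sox4 rose from 0.39, 0.86 and 0.77 to 2.46, 2.47 and 2.47, by 1.79 (SE 0.13, adjusted p = 2.99e-07). Jun, the factor most tied to the repair state, was at 0.75 and was not called.

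Sox11 and Tfap2a, a factor of the neural crest, were not well above background on any 0 d array, and were at least 3.24- and 1.3-fold higher at 4 d. Such bounds, here and below, set the 4 d mean against a ceiling for 0 d: on each 0 d array the dimmest signal that still counted as well above background was taken, or the signal of the gene if brighter, and these were averaged. In Sox11 replicate 3 of 4 d, at −6.01, was far below the other 4 d arrays. Egr3 rose by 1.12 (adjusted p = 0.00173), but by 0.60 after quantile normalization, 0.29 after normexp and 0.62 with the values of the authors, which is under 2-fold. Olig1 went from −3.29, −2.89 and −3.18 to −4.58, −5.13 and −4.53, the only factor of the list that fell, by 1.63 on the log2 scale (adjusted p = 3.07e-04).

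Genes of repair Schwann cells and trophic factors were mixed, with 13 of 32 upregulated (40.6%) and 4 downregulated (12.5%), against 15.9% and 6.78% of all tested probes. Their median was 0.80, or 0.79 with undetected genes at their bound. Ngfr, the low-affinity neurotrophin receptor p75 that marks repair Schwann cells (NM_012610, chr10:84263082-84263141), was at 0.56, 0.85 and 0.36 at 0 d and 4.07, 4.15 and 4.16 at 4 d. The 4 d arrays were nearly equal and all lay far above 0 d, with a change of 3.54 (SE 0.11, adjusted p = 9.11e-10). Nrg1, the axonal and Schwann cell ligand of the ErbB receptors, was at −4.94, −4.33 and −4.64 and −1.54, −1.16 and −1.16, and changed by 3.35 (SE 0.19, adjusted p = 7.20e-08). Its receptor genes Erbb2 and Erbb3 were at 0.79 and −0.38 and were not called.

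Among the secreted factors, Clcf1, a cytokine of the CNTF family, rose from −0.93, −0.86 and −0.97 to 1.73, 1.69 and 1.68, by 2.62 (SE 0.09, adjusted p = 2.37e-09). Cntf itself, which myelinating Schwann cells make, fell by 1.27 on the log2 scale (adjusted p = 2.63e-05), as did the growth factor genes Tgfa (−1.93) and Fgf7 (−1.33) and the receptor gene Ret (−1.92). Gfap, the intermediate filament of astrocytes and non-myelinating Schwann cells, rose from −3.72, −4.14 and −3.79 to −1.90, −1.86 and −1.72, by 2.06 (SE 0.21, adjusted p = 5.54e-06). Gdnf, a survival factor of motor neurons, rose by 1.73 (SE 0.13, adjusted p = 4.55e-07), and Shh and Bdnf, well above background on 2 and 1 of the 3 arrays of 0 d, by 2.66 and 1.72. Areg and Igfbp2 were not well above background at 0 d and were at least 3.15- and 5.53-fold higher. The count of upregulated genes in this list was 7 after normexp and 6 among the 25 members well above background on both days. The list mean was −1.41, −1.29 and −1.35 at 0 d and −0.28, −0.21 and −0.28 at 4 d.

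The genes of mitosis rose nearly without exception. Of 38 tested genes for the spindle, the kinetochore and cytokinesis, 37 were upregulated, with a median log2 change of 2.04, while 15.9% of all tested probes were upregulated. Hmmr was the remaining gene, at 0.64. In all 38 the 4 d arrays were above the 0 d arrays (no overlap in 64% of all tested probes), and all were well above background on both days. The list mean was −1.17, −1.105 and −1.57 on the 0 d arrays and 0.73, 0.77 and 0.71 on the 4 d arrays.

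Birc5 (survivin), a subunit of the chromosomal passenger complex (NM_022274), was at −1.64, −2.99 and −2.58 at 0 d and 1.39, 1.68 and 1.09 at 4 d. The days did not overlap, although the 0 d arrays were spread, and the change was 3.79 (SE 0.27, adjusted p = 3.49e-07). Cenpa, the histone H3 variant that marks centromeres, was at −3.54, −3.66 and −3.86 and −0.97, −0.96 and −0.90, a change of 2.74 (SE 0.11, adjusted p = 5.08e-09). Cenpe, a kinesin of the kinetochore, was at −4.55, −4.56 and −4.83 and −1.92, −1.90 and −2.03, a change of 2.69 (SE 0.10, adjusted p = 4.45e-09). In these genes the replicates of a day differed far less than the days did. Ccna2, the cyclin of S and G2 phase, rose from −0.65, −0.19 and −1.13 to 2.03, 2.19 and 1.88, by 2.69 (SE 0.18, adjusted p = 1.96e-07).

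Promoters of mitotic genes are known for CCAAT boxes, bound by NF-Y, and for a cell cycle element read as TTTGAA, and those of replication genes for E2F sites read here as TTTNNCGC. Each motif was searched on both strands in the window from 250 bases before to 50 after the start of transcription, with RefSeq sequences of build GRCr8. The shares of a list count genes with the motif in any of their promoters, while those of all count single promoters, so the units differ. CCAAT, which reads as ATTGG on the opposite strand, was found for 22 of the 32 mitosis genes that could be matched (68.75%) and in 37.49% of all 33469 promoters. TTTGAA, which reads as TTCAAA on the opposite strand, was found for 23 of the 32 genes (71.88%) and in 18.35% of all promoters. The stretches below, which lie before the start and overlap no annotated gene, were chosen after the matches were seen, to show how such boxes sit in promoters of genes that rose together: Ccnb1 (log2 change 2.18) at chr2:33655226-33655325, Ccnb2 (2.08) at chr8:79981719-79981808 and Top2a (2.41) at chr10:84473094-84473163 on the − strand, and Plk1 (2.44) at chr1:186147598-186147657 on the + strand, each written 5′ to 3′ on the gene's strand. Capitals mark matches to either motif on either strand. A match describes the letters and is not a bound site.
Ccnb1: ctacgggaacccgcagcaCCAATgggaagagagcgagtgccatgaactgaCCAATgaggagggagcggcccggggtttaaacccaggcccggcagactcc
Ccnb2: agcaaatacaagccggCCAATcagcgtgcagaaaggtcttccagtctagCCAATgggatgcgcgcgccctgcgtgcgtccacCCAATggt
Plk1: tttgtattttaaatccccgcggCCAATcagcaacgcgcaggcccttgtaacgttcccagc
Top2a: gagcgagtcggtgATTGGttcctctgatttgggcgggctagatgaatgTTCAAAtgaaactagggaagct

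DNA replication genes rose with them. Of 34 tested genes, 27 were upregulated (79.4%, against 15.9% of all tested probes) and none downregulated, with a median log2 change of 1.55. In all 34 the 4 d arrays were above the 0 d arrays, which is again to be read against 64% of all probes without overlap. Mcm5, a subunit of the replicative helicase (NM_001106170, chr19:13992982-13993041), was at −4.07, −4.44 and −4.76 at 0 d and −1.47, −1.26 and −1.16 at 4 d, a change of 3.13 (SE 0.15, adjusted p = 2.01e-08). Rrm2, the regulated subunit of ribonucleotide reductase, was at −1.85, −1.64 and −2.41 and 0.76, 0.66 and 0.61, and changed by 2.65 (SE 0.18, adjusted p = 2.50e-07). Both were clearly apart on the 2 days. Mcm6 rose from −1.09, −1.19 and −1.72 to 1.30, 1.46 and 1.16, by 2.64 (SE 0.14, adjusted p = 5.66e-08), and Pole2, a subunit of DNA polymerase epsilon, by 2.57 (SE 0.17, adjusted p = 1.77e-07). Pcna, the sliding clamp, was at 0.57 and was not called, nor were Rpa2, Dut, Pold1, E2f1, Rfc5 and Lig1, from 0.28 to 0.94.

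The motif TTTNNCGC was found for 13 of 27 replication genes (48.15%), in any of their promoters, and in 4.924% of all promoters. The 2 promoter stretches of helicase genes below hold matches on both strands, some of which overlap, at chr19:13488593-13488812 (+ strand) for Mcm5 and chr13:42404353-42404502 (− strand) for Mcm6. Capitals mark matches to this motif and no other, and the stretches were chosen as above.
Mcm5: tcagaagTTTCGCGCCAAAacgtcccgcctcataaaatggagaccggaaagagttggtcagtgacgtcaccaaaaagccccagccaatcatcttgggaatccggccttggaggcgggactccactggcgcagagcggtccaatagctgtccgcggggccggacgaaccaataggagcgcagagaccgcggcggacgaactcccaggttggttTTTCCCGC
Mcm6: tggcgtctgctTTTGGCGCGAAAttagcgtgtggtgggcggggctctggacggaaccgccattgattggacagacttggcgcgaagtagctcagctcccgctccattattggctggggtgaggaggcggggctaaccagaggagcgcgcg

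Of 19 regulators of the step into the cycle, 6 were upregulated and 2 downregulated. Over all tested probes the shares were 15.9% and 6.78%. The median log2 change of the 19 genes was 0.41. Ccnd3 and Cdk4, a cyclin of G1 and its kinase, rose by 1.31 (SE 0.09, adjusted p = 2.00e-07) and 1.19 (SE 0.09, adjusted p = 4.59e-07). Of the cell cycle inhibitors, Cdkn2a, whose locus encodes p16 and p19Arf, went from −2.10, −3.34 and −2.24 to −0.26, 0.15 and 0.00, by 2.52 (SE 0.26, adjusted p = 4.73e-06), and Cdkn2b (p15), an inhibitor of Cdk4, from −2.73, −2.57 and −2.39 to −1.15, −1.11 and −1.17, by 1.42 (SE 0.11, adjusted p = 8.23e-07). Cdkn1a (p21), a target of p53, rose by 1.098 (adjusted p = 1.21e-05), which was under 2-fold without SN 4 d replicate 3. The 2 genes that fell were Ccnd2 (−1.19) and Cdkn1c (−1.03).

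Fibrillar collagens and their processing enzymes had a median change of −0.16, with 5 of 27 upregulated (18.5%) and 1 downregulated (3.7%), near the 15.9% and 6.78% of all tested probes. Col1a1, a chain of collagen I, went from 8.58, 8.64 and 8.65 to 7.94, 7.69 and 8.09, a change of −0.72 that was under 2-fold, while its other 2 probes were downregulated. The upregulated genes were P4ha3, a prolyl hydroxylase (2.72), Plod2, a lysyl hydroxylase (1.87), Col6a3 (1.75), Col18a1 (1.62) and Loxl1 (1.39). Col11a1 was the downregulated one, well above background on 2 of 3 arrays at 0 d and on none at 4 d, and was at least 2.22-fold lower at 4 d (adjusted p = 2.90e-04). Basement membrane genes had a median of −0.50, with none upregulated and 4 of 19 downregulated. Itgb4 and Itga6, the laminin receptor chains of myelinating Schwann cells and of the perineurium, fell from 7.61, 7.84 and 7.90 to 6.55, 6.27 and 6.25 (adjusted p = 2.43e-06) and from 0.23, 0.53 and 0.53 to −1.37, −1.38 and −1.28 (adjusted p = 4.24e-07). For both, every 4 d array was below 0 d by more than the replicates differed. Col4a5, a collagen IV chain, fell by 1.82 on the log2 scale (adjusted p = 1.29e-07), and its other probe rose.

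Matrix glycoproteins and proteases were upregulated in 14 of 38 genes and downregulated in 4, against 15.9% and 6.78% of all tested probes. Their median log2 change was 0.32. Among the 35 members that passed the background limit throughout both days, 11 rose and 4 fell. Tnc (tenascin C), a matrix protein of wounds (NM_053861), was at −0.56, −0.88 and −1.35 at 0 d and 3.73, 4.05 and 3.87 at 4 d. All 4 d arrays lay far above all 0 d arrays, with a change of 4.81 (SE 0.26, adjusted p = 5.39e-08). Plaur, the receptor of urokinase, rose from −2.42, −2.64 and −3.05 to −0.68, −0.51 and −0.35, by 2.19 (SE 0.15, adjusted p = 3.16e-07). Mmp12, the macrophage elastase, was not well above background at 0 d and was at least 20.1-fold higher at 4 d. Timp3, an inhibitor of metalloproteases held in the matrix, fell from 2.56, 2.64 and 2.67 to 0.61, 0.34 and 0.55, by 2.12 on the log2 scale (adjusted p = 7.38e-07).

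Macrophage and monocyte markers rose, 30 of 34 (88.2%, against 15.9% of all tested probes) with none downregulated and a median log2 change of 1.86. Their mean was 0.31, 0.37 and 0.51 on the 0 d arrays and 2.24, 2.35 and 2.53 on the 4 d arrays. Cd68, the lysosomal glycoprotein of macrophages (NM_001031638, chr10:56481762-56481821), was at 2.46, 2.78 and 2.63 at 0 d and 5.45, 5.51 and 5.76 at 4 d. The days were well apart, with a change of 2.95 (SE 0.18, adjusted p = 1.14e-07). Cx3cr1, the fractalkine receptor of resident macrophages and monocytes, rose from −5.04, −4.40 and −4.08 to −0.91, −0.93 and −0.70, by 3.66 (SE 0.20, adjusted p = 5.72e-08). The members without a call were Spp1 (−0.67), C1qb (−0.11), Laptm5 (0.68) and Marco, which was not well above background at 0 d.

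Single genes that phagocytes express when they take up lipid and debris rose strongly. In the list for lipid uptake and export the median, though not the share upregulated, was near that of all probes. Gpnmb, a glycoprotein of lysosome-rich macrophages (NM_133298, chr4:77182198-77182257), went from 1.26, 0.91 and 1.28 at 0 d to 5.92, 5.97 and 6.26 at 4 d, by 4.90 (SE 0.18, adjusted p = 3.32e-09). Apoc1, an apolipoprotein that foamy macrophages make (NM_012824, chr1:78996746-78996805), went from −2.76, −2.17 and −2.23 to 2.92, 2.94 and 3.07, by 5.37 (SE 0.20, adjusted p = 3.40e-09). Neither gene showed overlap between the days. Abca1, the transporter that loads cholesterol onto apolipoproteins, went from −0.995, −0.73 and −1.18 to 2.02, 2.12 and 2.16, by 3.07 (SE 0.14, adjusted p = 1.18e-08), and Msr1, a scavenger receptor, from −2.16, −2.19 and −1.89 to 1.14, 1.29 and 1.31, by 3.32 (SE 0.12, adjusted p = 2.91e-09). Pla2g7 rose by 2.998 (adjusted p = 2.41e-07). Of the 26 genes for lipid uptake and export 7 were upregulated, 2 downregulated and 17 not called, and the median of 0.23 was near that of all probes. Gpnmb is from the lysosome list. Apoe, the apolipoprotein that macrophages and Schwann cells secrete in injured nerve, was at 7.14, 7.36 and 7.44 and 7.93, 7.91 and 8.11, a change of 0.67 that was under 2-fold, though over it after normexp or with the values of the authors. Lpl, lipoprotein lipase, fell by 1.65 on the log2 scale (adjusted p = 3.15e-08).

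Of 33 lysosomal genes 9 were upregulated (27.3%, against 15.9% of all tested probes), 24 were not called and none was downregulated, with a median of 0.58. Ctss, a cathepsin of antigen-presenting cells, rose from 3.36, 3.48 and 3.82 to 5.57, 5.68 and 5.74, by 2.11 (SE 0.12, adjusted p = 7.20e-08). Ctsz rose from 0.29, 0.06 and 0.35 to 2.14, 2.34 and 2.68, by 2.15 (SE 0.15, adjusted p = 3.29e-07), and Lgmn, the asparaginyl endopeptidase, by 1.86 (SE 0.10, adjusted p = 5.66e-08). Ctsd, the main aspartic protease of lysosomes, was higher on every 4 d array (7.02, 7.11 and 7.25 against 6.09, 6.12 and 6.22), but its change of 0.98 was just under 2-fold. The letters TCACGTGA, a CLEAR element of lysosomal promoters, were found for 4 of 25 genes of the list (16%), in any of their promoters, and in 0.7768% of all promoters. TCACNCCAC, a sterol regulatory element, was found for 0 of the 16 matched genes of the cholesterol list and in 1.117% of all promoters, which says only that these letters are not in those windows.

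Of 20 complement genes 11 were upregulated (55%, against 15.9% of all tested probes) and 1, the decay-accelerating factor Cd55, downregulated (−1.45), with a median of 1.14. C3, the component on which all routes converge, went from 0.26, 0.23 and 0.57 to 2.002, 1.90 and 2.45, by 1.76 (SE 0.19, adjusted p = 6.96e-06). Cfi, the protease that inactivates C3b, rose by 3.05 (SE 0.18, adjusted p = 1.09e-07). Of 11 genes of MHC class II presentation, 7 were upregulated, with a median of 1.30. Ciita, the master regulator of class II genes, went from −4.98, −4.46 and −4.85 to −2.91, −2.67 and −2.88, by 1.95 (SE 0.19, adjusted p = 3.37e-06), and RT1-DMa, which loads peptide, from 1.20, 1.61 and 1.17 to 3.14, 3.22 and 3.45, by 1.94 (SE 0.14, adjusted p = 4.52e-07). Cd74, the invariant chain, was higher on all 4 d arrays but by less than 2-fold (0.64).

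Markers of T cells and natural killer cells were upregulated in 24 of 25 genes (96%, against 15.9% of all tested probes). Foxp3, the factor of regulatory T cells, was the other (0.48). Of the 18 that passed the background limit throughout both days, 17 were upregulated. The median of all 25 was 2.64, or 2.60 with 5 undetected genes set at their bound. The list mean was −4.90, −4.91 and −4.68 at 0 d and −2.15, −2.03 and −1.80 at 4 d. Cd8a, a chain of the CD8 co-receptor that rat macrophages and natural killer cells can carry as well as T cells (NM_031538, chr4:104593483-104593542), went from −5.60, −6.02 and −5.62 to 0.66, 0.83 and 1.25. No array was near the other day, and the change of 6.66 (SE 0.22, adjusted p = 1.80e-09) was the largest of the list. Cd8b went from −3.93, −4.19 and −4.01 to 0.92, 1.04 and 1.25, by 5.11 (SE 0.21, adjusted p = 7.62e-09). Cd3e, the signalling chain that defines T cells, was not well above background on any 0 d array and was at least 9.61-fold higher at 4 d, at −3.23, −3.09 and −3.10 (adjusted p = 1.63e-07).

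Other leukocytes were less uniform. Of 11 listed B cell genes only 6 were tested, among them Cd79b, a chain of the B cell receptor, at −0.12. Of the rest, 2 had probes that did not pass the filter on dim probes and the others had no probe under that name. Of the 6 tested, 5 were upregulated, among them Fcrla (2.40) and Cd22 (1.76), and 2 after normexp. Neutrophil genes were upregulated in 7 of 14 (50%) and downregulated in 2 (14.3%), against 15.9% and 6.78% of all tested probes. The falls were Lcn2 (−1.06) and Mpo (−1.01), and without SN 0 d replicate 1 neither was called. Only 1 rise was of a gene that passed the background limit throughout both days. That gene was Csf3r, the receptor of G-CSF, which went from −5.82, −5.71 and −5.99 to −2.48, −2.42 and −2.18, by 3.48 (SE 0.16, adjusted p = 2.06e-08). S100a8, a calcium-binding protein abundant in neutrophils, was at 0.91 and was not called, while 1 of its other 2 probes was upregulated. Mast cell genes fell: 7 of 12 were downregulated, and Mcpt9, not well above background at 0 d, was at least 5.79-fold higher. Cpa3, the carboxypeptidase of mast cell granules, went from 2.53, 2.09 and 2.31 to 0.69, 0.35 and 0.97, by −1.64 (SE 0.20, adjusted p = 2.27e-05), and Cma1, their chymase, from 3.63, 3.70 and 3.23 to 1.89, 1.31 and 1.91, by −1.81 (SE 0.22, adjusted p = 1.70e-05). Ms4a2, the beta chain of the IgE receptor, fell by 1.92 on the log2 scale (adjusted p = 2.83e-06).

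Chemokines and their receptors were upregulated in 21 of 29 genes, none downregulated, with a median of 1.57, and in 13 of 29 after normexp. Cxcl14 went from 1.62, 1.43 and 1.04 to 4.93, 5.01 and 5.03, by 3.63 (SE 0.13, adjusted p = 3.30e-09), and Cxcr3, a receptor of effector T cells, from −5.22, −5.14 and −5.02 to −1.97, −1.74 and −1.79, by 3.29 (SE 0.18, adjusted p = 6.16e-08). Ccl2, the main attractant of monocytes, rose from 1.28, 1.33 and 1.65 to 2.56, 2.79 and 3.50, by 1.53 (SE 0.25, adjusted p = 2.16e-04), and was higher at 1 d (5.16 ± 0.08, SD over 3 arrays) than at 4 d (2.95 ± 0.49). Ccl12 rose by 2.62 (SE 0.72, adjusted p = 0.00749), but replicates 3 of both days were far above the others, −2.83, −3.86 and −0.87 at 0 d and −0.62, −0.58 and 1.49 at 4 d, and the call was lost in a fit of the 6 arrays alone. Of 31 interferon-stimulated genes 5 were upregulated (16.1%, against 15.9% of all tested probes) and none downregulated, with a median of 0.30. Their list mean was 0.67, 0.27 and 1.52 at 0 d and 0.97, 0.89 and 1.93 at 4 d, so that the arrays of both days overlapped, and with 1 array left out the count lay between 2 and 9. Gbp2, an interferon-induced GTPase, rose by 1.84 (SE 0.25, adjusted p = 5.43e-05).

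Most markers of endothelial cells, pericytes and fibroblasts were not called. The counts are to be read against 15.9% of all tested probes upregulated and 6.78% downregulated. Of 20 endothelial genes 2 were upregulated, Tie1 (1.27) and Eng (1.24), and 1 downregulated, the claudin gene Cldn5 (−1.21), with a median of 0.05. None of 10 genes of pericytes and smooth muscle was called. Of 20 fibroblast genes 1 rose, Fbln1 (1.57), and 1 fell, Gsn (−1.29). Of 10 perineurial genes 3 fell (30%) and 2 rose (20%). Slc2a1 (GLUT1) is the glucose transporter of the perineurium and of nerve capillaries. It fell from 4.65, 4.82 and 4.69 to 3.17, 3.06 and 3.25, by 1.56 on the log2 scale (adjusted p = 8.66e-08). Slc16a1, the lactate transporter MCT1, is not on the perineurial list but on that of hypoxia and glycolysis. It fell from 2.02, 2.30 and 2.13 to 0.62, 0.58 and 0.69 (adjusted p = 1.22e-07). Both genes were lower on every 4 d array. Among the 16 Schwann cell markers, several of which are myelin genes, 2 rose (12.5%) and 5 fell (31.25%), and S100b was at −0.06.

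Neuronal genes were downregulated in 6 of 17 (35.3%, against 6.78% of all tested probes). They were upregulated in 3 (17.6%), near the 15.9% of all tested probes. The rises included Nefl and Nefm, the light and medium neurofilament chains, which Schwann cells can also express. Nefl went from −4.22, −4.67 and −3.78 to −1.37, −1.31 and −0.09, by 3.30 (SE 0.40, adjusted p = 2.19e-05), and Nefm from −0.79, −1.005 and −0.29 to 1.92, 1.93 and 2.77, by 2.90 (SE 0.43, adjusted p = 9.44e-05). In both, replicate 3 of 4 d was well above the other 4 d arrays, and without it the change of Nefl was 2.89. The third rise was that of Scn10a (1.03), for which replicate 3 of 4 d, at −5.45, was just above the 0 d arrays. Among the falls were Isl1 (−2.25) and Stmn2 (−1.52). Of 7 red blood cell genes 3 were downregulated and none upregulated, and with 1 array left out the count lay between 0 and 7.

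Hmox1, haem oxygenase 1, went from −0.96, −0.81 and −1.31 to 1.84, 2.37 and 2.43, by 3.24 (SE 0.23, adjusted p = 3.13e-07), and was 1 of 5 upregulated genes among 27 for oxidative stress and metal binding, of which 5 fell, against 15.9% and 6.78% of all tested probes. Mt3, a metallothionein of neural tissue, was one of those, from 5.38, 5.60 and 5.90 to 4.01, 3.52 and 3.56 (−1.93). Of 28 immediate early genes 10 were upregulated and 2 downregulated, Dusp1 (−1.21) and Nr4a1 (−1.08). Fosl1 (Fra-1), a partner of Jun in AP-1 (NM_012953, chr1:208098827-208098886), went from −2.86, −3.48 and −3.69 to 1.73, 2.03 and 1.98, by 5.25 (SE 0.20, adjusted p = 4.30e-09). Fos rose by 2.18 (SE 0.30, adjusted p = 6.11e-05) and Socs3, the feedback inhibitor of STAT3 signalling, by 2.25 (SE 0.09, adjusted p = 5.08e-09). For Fosl1 and Socs3 the days were far apart, while replicate 2 of 0 d was high for Fos (−1.49, 0.00 and −1.49 against 1.19, 1.27 and 1.096). Genes of endoplasmic reticulum stress (1 of 22 up, 2 down), of hypoxia and glycolysis (5 of 26 up, 3 down) and of the circadian clock (2 of 17 up, 3 down) stand beside shares of 15.9% and 6.78% over all probes, and for hypoxia the upregulated genes were 2 after quantile normalization and 1 after normexp.

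The largest rises among genes well above background on both days were those of Calcb, Cd8a, Gpr83, Gpr84, Apoc1, Il1rl1, Fosl1 and Dio3. Calcb, which encodes the beta form of the sensory neuropeptide CGRP (NM_138513, chr1:172780746-172780805), was at −5.89, −5.78 and −4.57 at 0 d and 1.51, 1.79 and 1.56 at 4 d. The days were far apart, with a change of 7.04 (SE 0.28, adjusted p = 5.47e-09). Gpr84, a receptor of medium-chain fatty acids on activated macrophages, went from −5.04, −5.50 and −4.59 to 0.29, 0.27 and 0.44, by 5.37 (SE 0.18, adjusted p = 2.19e-09). Il1rl1 (ST2), the receptor of interleukin 33, went from −3.71, −3.16 and −4.46 to 1.26, 1.55 and 1.90, by 5.35 (SE 0.32, adjusted p = 9.93e-08), and Dio3, the deiodinase that inactivates thyroid hormone, from −2.89, −3.49 and −4.01 to 1.79, 1.52 and 1.75, by 5.15 (SE 0.31, adjusted p = 9.36e-08). In each of them the 0 d arrays were dim, and none came near the 4 d arrays.

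**Figure D4:**
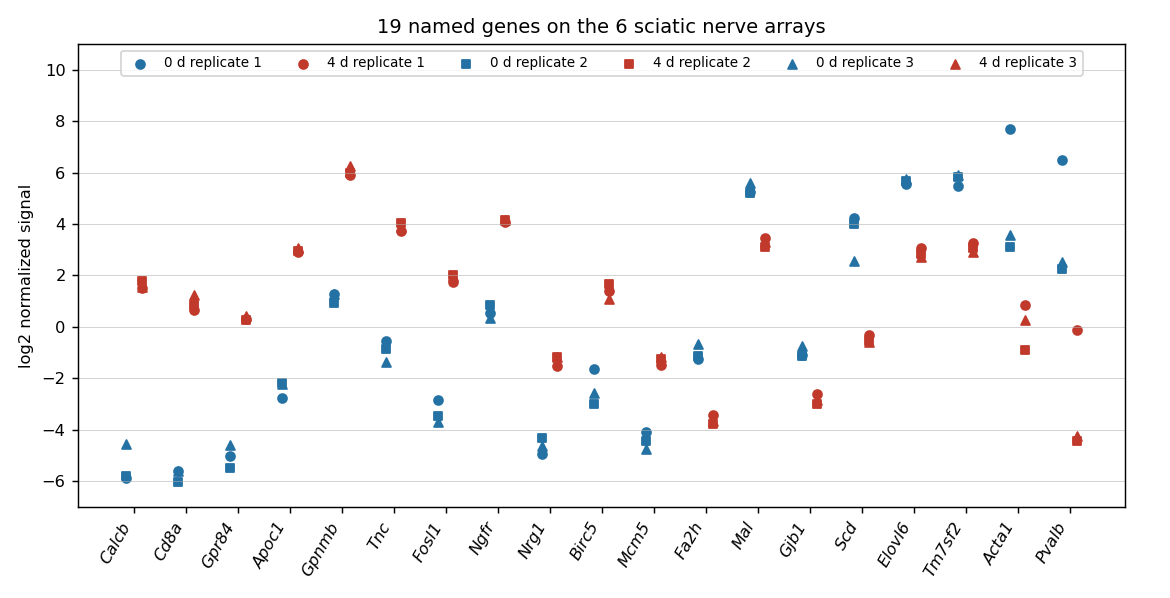
Normalized signal (log2) of 19 named genes on the 3 arrays of 0 d (blue) and the 3 arrays of 4 d (red), with circles, squares and triangles for replicates 1, 2 and 3. In each gene the colours stand apart, with the widest scatter within a day for the muscle genes Acta1 and Pvalb.

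Genes that no 0 d array measured above background had to be given as bounds. Mmp7 (matrilysin) was at least 43.5-fold higher at 4 d, where its signals were −1.07, −1.07 and −0.75, and Vsig4, a complement receptor of macrophages, at least 39.3-fold, at −1.34, −1.18 and −0.80. The bounds were 23.2-fold for Ctsw, a cathepsin of cytotoxic lymphocytes, 22.2-fold for Stra6l, 21.8-fold for Trh, the precursor of thyrotropin-releasing hormone, and 20.9-fold for Atp6v0d2, a subunit of the proton pump. The adjusted p of these was at most 1.21e-06. In the other direction, Cyp1a1, an enzyme induced by ligands of the aryl hydrocarbon receptor, was at −4.28, −2.39 and −4.42 at 0 d and not well above background at 4 d, at least 12.3-fold lower (adjusted p = 1.98e-06). Its 4 d signals, −9.11, −9.07 and −9.38, lay below all those of 0 d. Of the 7 next such falls, Crb3, Calb1, Csmd1, Slc7a14, Syn2, Coch and Iqub, all were under 2-fold after normexp.

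Olfactory receptor probes, of which the array holds 1113, stood at the dim end. Of 659 tested, 328 were upregulated and 4 downregulated, with a median log2 change of 1.15. Of all tested probes 15.9% were upregulated and 6.78% downregulated. Their median normalized signal on each array was −6.95, −6.997 and −6.96 at 0 d and −5.43, −5.23 and −6.01 at 4 d, while the lowest signal well above background was −6.65 to −6.22 at 0 d. At 0 d the typical receptor probe thus lay below that limit. Among the 208 that were well above background on all 6 arrays, 89 were upregulated. Whether the scan or the slide has a part in these rises was not tested, since both differ between the days.

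The 4 d values were also set against the neighbouring days, and these comparisons share the 4 d arrays with the one above. Against 1 d, 1196 probes were upregulated (3.4%) and 1802 downregulated (5.13%), 2998 in all (8.53%), and without SN 4 d replicate 3 the downregulated ones were 1045. Against 1 d the mitosis list still rose in 30 of 38 genes, the T and natural killer cell list in 19 of 25 and MHC class II in 9 of 11. DNA replication rose in 2 of 34, with means of 0.23, 0.20 and 0.37 on the 1 d arrays and 0.55, 0.64 and 0.58 on the 4 d arrays. Of the cholesterol genes 19 of 24 were lower at 4 d than at 1 d, and of the myelin genes 5 of 23. Neutrophil genes fell in 8 of 14, from list means of −1.60, −2.09 and −1.58 to −3.45, −3.25 and −3.37, and chemokines and receptors fell in 10 of 29 and rose in 6. Macrophage genes rose in 12 of 34 and fell in 3.

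The genes with the largest rises from 1 d to 4 d were C1qtnf3, Mmp7, Ccl17, Atp6v0d2 and Fcrl2. C1qtnf3, a secreted protein of the C1q and TNF family, was at −5.07 ± 0.16 (SD over 3 arrays) at 1 d and −0.05 ± 0.78 at 4 d (log2 change 5.02, adjusted p = 1.18e-05). Ccl17, a chemokine that attracts T cells, was at −3.85 ± 0.46 and 0.82 ± 0.12 (log2 change 4.67, adjusted p = 7.08e-07). At 0 d Ccl17 was at −3.81 ± 0.10, near its 1 d level. The largest falls were again muscle genes, Myh4, Pvalb, Mybpc2, Myl3 and Xirp2, and muscle had 25 of 42 genes lower at 4 d than at 1 d, with list means of 1.82, 0.43 and 1.32 at 1 d.

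From 4 d to 7 d fewer probes changed, 468 up (1.33%) and 445 down (1.27%), 913 in all (2.6%). The downregulated ones were 921 without SN 4 d replicate 3, 229 without replicate 1, 203 without replicate 2 and 266 without SN 7 d replicate 2. Gfra3, the receptor of artemin, rose after 4 d, from −3.50 ± 0.06 to −0.57 ± 0.01 (log2 change 2.94, adjusted p = 1.74e-06), as did Mmp13, a collagenase (log2 change 2.61, adjusted p = 9.82e-05). The 4 d level of Gfra3 was closer to 0 d (−4.36 ± 0.28) than to 7 d. The falls Or4c1, Or10al27 and Ano7 rest on 4 d arrays that disagree: Or4c1, an olfactory receptor gene, was at −1.96, −1.99 and −4.20 at 4 d. None of the cholesterol, mitosis, replication, complement or MHC class II genes fell after 4 d, but with 1.27% of all probes called few falls could appear in lists this short. From 4 d to 7 d the list means went from 0.74 to 0.60 for mitosis, 0.59 to 0.44 for replication and 1.16 to 1.04 for cholesterol. Those of complement went from 3.18 to 3.34 and of MHC class II from 1.73 to 2.17. Clca4l, a gene of the CLCA family, had close 4 d arrays (0.25, 0.23 and 0.05) and a log2 change of −2.29 to 7 d (adjusted p = 1.90e-04).

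The change in SN was last compared with that in the DRG, which hold the cell bodies of the cut sensory axons and were taken at the same 0 d and 4 d. Of 33796 probes tested in both tissues, 15306 (45.3%) changed differently (limma interaction, adjusted p under 0.05). Of the mitosis genes 37 of 38 did, and all of them changed more upward in SN, where the median was 2.04 against −0.38 in DRG. Of the cholesterol genes 23 of 24 did, all toward lower values in SN, with medians of −1.90 and −0.06. Of the myelin genes 17 of 23 did, with medians of −1.34 and −0.21. The macrophage list had a median above 0 in both tissues, 1.86 in SN (1.87 over the genes tested in both) and 0.91 in DRG, and 22 of 33 changed differently. MHC class II genes had medians of 1.30 and 1.04, with 7 of 11 different, 4 of them higher in SN and 3 lower.

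Single genes show the contrast. Ngfr changed by 3.54 in SN and −0.47 in DRG (interaction, adjusted p = 1.18e-14), and Calcb by 7.04 and −0.34 (adjusted p = 9.06e-14). Fosl1 changed by 5.25 and 1.17 (adjusted p = 6.50e-08). Cdkn1a changed less in SN than in DRG, with 1.098 in SN and 2.53 in DRG (adjusted p = 1.82e-06). C3ar1, the receptor gene of the complement fragment C3a, with 1.38 in DRG, had an interaction at adjusted p = 0.17, so that no difference was shown for it. The slides and scan runs that differ between 0 d and 4 d are shared by the tissues only in part. Of the DRG arrays of 0 d, 1 of 3 lay on the SN slide, and SN 4 d replicate 3 lay on the slide of the DRG 4 d arrays. The date of the scan is shared in full: in both tissues all 0 d arrays had the same date and all 4 d arrays another.

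**Figure D5:**
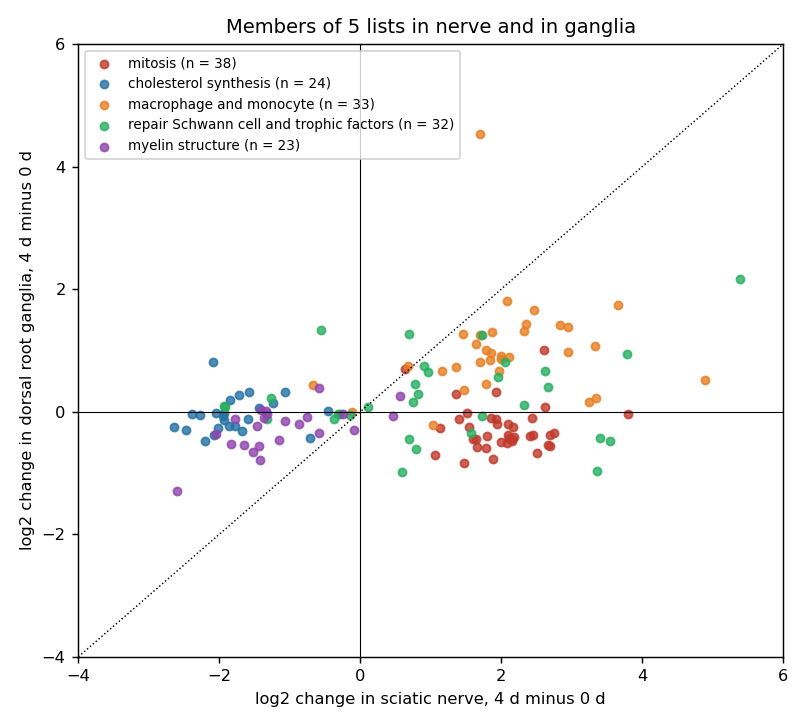
Log2 change from 0 d to 4 d in SN (x axis) and DRG (y axis) of the members of 5 lists, 1 point a gene, with a dotted line at equality. Mitosis genes lie to the right of 0 in SN and around −0.38 in DRG, cholesterol genes to the left in SN and around −0.06 in DRG, and macrophage genes are shifted upward in both.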

How the data were processed

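RNA of the proximal sciatic nerve was labelled with Cy3 and read on one-colour Agilent rat arrays, 3 a time point, called biological replicates in the methods. Per the file headers, the authors extracted the deposited intensity values with Feature Extraction 10.5.1.1 and probe positions on rn4. They also deposited log2 values after quantile normalization, of which 41012 of 41090 rows matched a probe here. The labels name a mirVana kit for the extraction and the methods Trizol.

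The log2 of the processed signal (background-subtracted, scanner intensity) was taken minus the 75th percentile of each array, without control spots and outlier flags, and spots of a probe were averaged. A probe was tested where every array of some SN group rated it well above background, which left 35157 probes. For a gene with several probes the brightest tested one stands for it. limma 3.58.1 (R 4.3.3, statmod 1.5.0) was fitted over all 5 SN groups with Benjamini-Hochberg adjustment, and a call needs an adjusted p under 0.05 and over 2-fold. DRG was compared by an interaction term. The fit was tested on simulated data. Probes were named through RefSeq accessions (16715) or by the name on the array (4145), and 20152 had no symbol. The number of arrays limits the precision.

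The gene lists and the comparison were chosen with earlier results of these data known. Named genes were the first listed and the most changed of each list, the 8 largest rises and falls, those from or to background and the 5 largest against 1 d and 7 d; genes named to complete a count were chosen after their values were seen. The alternatives were quantile normalization, normexp, the authors' values, other percentiles and filters, the slide as a random block, the 6 arrays alone, the independent t-test of the methods, the replicate number as a block, the muscle mean as a covariate and each array left out. Other probes of a gene, and 672 missing values over the 30 arrays, were left as they are. The values of some single genes that the lists count are not reported here.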

Additional observations from a re-analysis of the deposited data

Results flagged for a closer look

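The change from 0 d to 4 d differed between SN and DRG for 15306 of the 33796 probes tested in both tissues, by the interaction term. Changes of opposite sign were searched only among the named genes, with a DRG change of over 2-fold and adjusted p under 0.05. The genes found in this way all fell in SN. Smaller opposite changes were not searched, and the muscle list had medians of −3.54 in SN and 0.36 in DRG. The log2 change in DRG was 1.22 for Olig1, a transcription factor gene of the oligodendrocyte lineage, against −1.63 in SN. It was 3.31 for Krt19, a keratin gene on the perineurial list, against −1.77 in SN. It was 1.23 for Calb1, which encodes the calcium buffer calbindin and was not well above background in SN at 4 d.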

How the results depend on the processing

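Of 4 d against 0 d, the 5589 upregulated and 2383 downregulated probes became 1719 and 1463 after normexp with quantile normalization, and the upregulated ones 3194 among probes that passed the background limit throughout both days, where fewer probes are tested. With 1 array left out they ranged from 5018 to 6190 and from 2230 to 2525. Against 1 d, normexp gave 629 upregulated and 462 downregulated probes, and leaving out 1 array 1045 to 2183 downregulated ones. From 4 d to 7 d the counts were 157 and 59 after normexp, 269 and 178 with a random slide effect, and 237 downregulated with the filter on both days, and with 1 array left out they ranged from 322 to 611 and from 203 to 921. The difference between the days in list means, as the median over members, was −1.25 for myelin (−1.11 as the mean) and 2.14 for macrophages (1.98), and T and natural killer cells had 2.46 with the values of the authors (2.84). The replicate number as a block gave 5553 and 2389 probes, while same-numbered arrays of 0 d and 4 d deviated from their group means with correlations of −0.08, 0.07 and −0.05. No pairing by number was seen in these values, which are too few to show that there is none. Of 181 values of named genes, 23 lost their call after normexp, 6 with the slide block, and 8 without SN 4 d replicate 3. Of the 161 in 4 d against 0 d, 15 lost it with the t-test of the methods after adjustment and 11 with the muscle covariate. In each other alternative at most 5 did, and none changed direction in any alternative. Beyond those given in the text, Col4a3, Irf1, Psmb8, Hk2, Dbp, Bhlhe41, Lcn2 and Epb42 lost their call under some alternative. The causes of these shifts were not tested. Dim probes and the small number of arrays limit the rest.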
